A study of Mus musculus with 3 samples.

Results

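The 9 genes described here encode proteins that carry cargo while a spermatid builds its tail, and they were taken by symbol from the 22843 genes of the expression table. Ift20, Ift74, Ift81, Ift88 and Ift172 belong to intraflagellar transport complex B, and Ift140 belongs to complex A. Meig1, Spef2 and Hook1 act at the manchette. All 9 symbols were found. They were listed by symbol and not by a rule on measured values, but earlier results of these data were known at the time.

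Intraflagellar transport moves tubulin and other tail parts along the growing axoneme on trains of protein complexes. Kinesin moves the trains outward and cytoplasmic dynein moves them back. The manchette is a skirt of microtubules that surrounds the spermatid nucleus while it elongates, and cargo bound for the tail also travels along it. In the mouse, loss of these genes commonly leaves sperm with short, bent or missing tails.

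The study asked what the long non-coding RNA gene Gm4665 does in spermatogenesis by lowering it in the living testis. ICR mice at postnatal day 21 received AAV9 vectors by microinjection: 1 testis took a control hairpin with red fluorescent protein (AAV9-shCtrl-RFP), and the contralateral testis took a Gm4665 hairpin with the same reporter (AAV9-shRNA-RFP). After removal of somatic cells, cells with RFP were sorted by FACS as germ cells, and the 3' ends of their RNA were sequenced cell by cell. The 3 libraries were shCtrl, Gm4665-shRNA1 (hairpin 1) and Gm4665-shRNA2 (hairpin 2), each described as cells of 3 mice. All 3 groups therefore carried virus, a hairpin and RFP. Neither the promoter of the hairpins nor the time from injection to harvest was given in the sources used here.

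Values are given in the order shCtrl, hairpin 1, hairpin 2 throughout. There were 1418, 1732 and 1873 cells, with 40405313, 38330044 and 44640351 UMIs (counted RNA molecules) in total and medians of 19366, 14667.5 and 16518 per cell. Only 18 cell barcodes occurred in more than 1 library, in 36 cells, and leaving these cells out changed none of the counts of the 9 genes above or below the median over all cells. Gm4665 itself stood at 311, 52.8 and 79.1 CPM (UMIs per 1000000 UMIs of the cells summed). Marker genes placed the cells in 5 germ classes: spermatogonia, spermatocytes from leptotene to zygotene or from pachytene to diplotene, and spermatids that were round or else elongating and condensing. The elongating and condensing class took 41.7%, 36.4% and 26.2% of cells, and the round class took 30.5%, 29.1% and 25.4%. Pachytene to diplotene spermatocytes made up 5.57%, 11.5% and 11.6%. Although the cells were sorted as germ cells, cells with immune markers made up 1.34%, 5.31% and 9.61%, and are called non-germ cells. Clusters led by somatic markers that also held a germ class's markers were kept apart as mixed. The leptotene to zygotene cluster was led by its own class and kept, with 4 of 7 Sertoli markers also raised in it. It also raised 5 of 11 pachytene to diplotene markers. The spermatogonia cluster raised 9 of 11 leptotene to zygotene markers beside 10 of 10 of its own. When cells were clustered without the 9 genes and Gm4665, 60 cells with Prdm9 among their top genes formed a separate leptotene to zygotene cluster. Class names thus give the leading stage and not a pure one.

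Each group was 1 library, so no comparison between libraries carries a test, and the hairpin cannot be told apart from any other difference between the libraries. The ranges given are exact 95% intervals that cover counting error only. A fold is the log2 of CPM + 1 in a hairpin library over that in shCtrl. It is read against the median fold of all genes compared in the same cells, which was 0.23 and 0.25 over all cells for hairpins 1 and 2, since a CPM value moves with the share taken by the most abundant RNAs. That median was -0.04 and -0.10 under TMM scaling and -0.05 and -0.15 under median-of-ratios scaling, so the difference from the median is used for direction. Genes were compared if their mean was at least 10 CPM and their UMIs numbered at least 30. Levels of different genes are not ranked against each other.

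Through the germ cell classes the genes followed different courses. Ift172 and Hook1 were lowest in pachytene to diplotene spermatocytes and highest in elongating and condensing spermatids in all 3 libraries. The other complex B genes and Ift140 were highest in spermatocytes and lowest in elongating and condensing spermatids, again in all 3 libraries. Meig1 and Spef2 were highest in pachytene to diplotene spermatocytes. Some neighbours in these orders overlapped in their intervals: Ift88 and Ift140 between spermatogonia and elongating and condensing spermatids, and Spef2 between pachytene to diplotene spermatocytes and round spermatids, in all 3 libraries. Ift81 overlapped between both kinds of spermatocyte in shCtrl and hairpin 1, and Ift172 between pachytene to diplotene spermatocytes and spermatogonia in all 3 libraries. These courses are descriptions of the classes, since the clustering read the RNA of the same cells, though of the 9 genes only Meig1 was among the 2000 variable genes it used.

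**Figure D1:**
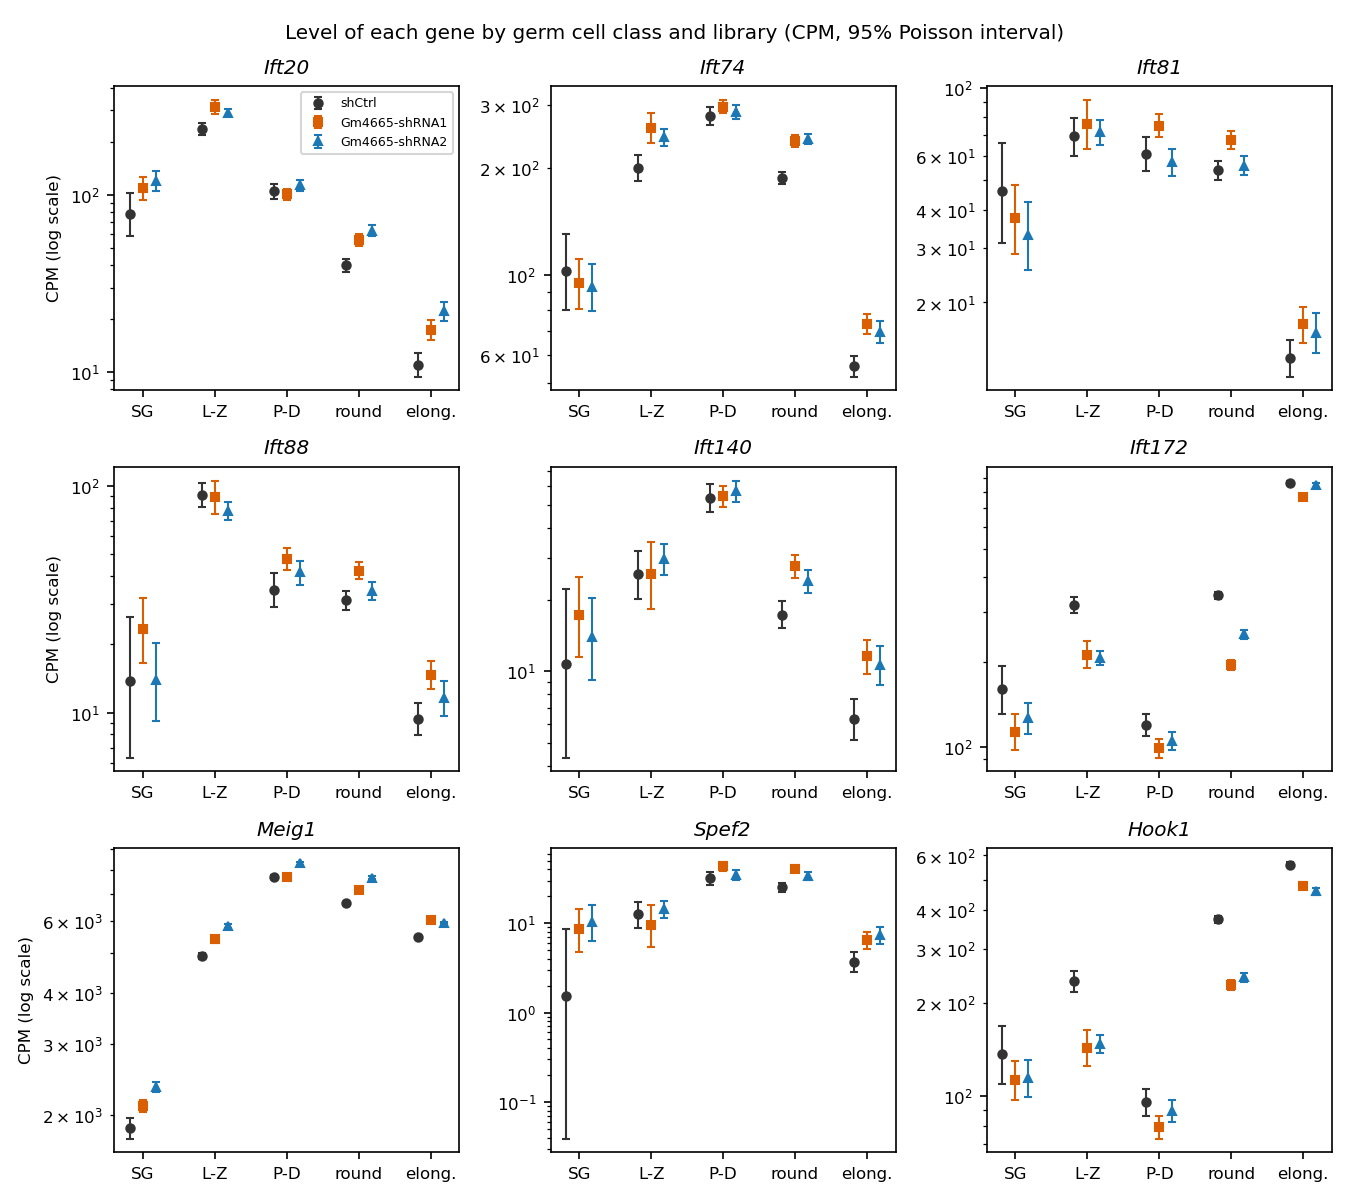
Level of each of the 9 genes (CPM, log axis, scale set per panel) in spermatogonia (SG), leptotene to zygotene (L-Z) and pachytene to diplotene (P-D) spermatocytes and in round and then elongating and condensing (elong.) spermatids, by library; bars are 95% Poisson intervals. Ift172 and Hook1 climb to 861 and 560.5 CPM in elongating and condensing spermatids of shCtrl, where Ift20 is at its lowest, 11 CPM.

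Ift20 encodes the complex B protein that also sits at the Golgi, and its gene spans chromosome 11, 78536361 to 78541737, plus strand (build mm10, GENCODE vM21, as for every gene position). Its level in leptotene to zygotene spermatocytes was 236 CPM (218 to 254) in shCtrl, 315 (287.5 to 344) with hairpin 1 and 290.4 (277 to 304.5) with hairpin 2. In elongating and condensing spermatids it was 11, 17.4 and 22.0 CPM, which was 21.4, 18.1 and 13.2 times lower than in leptotene to zygotene spermatocytes. Spermatogonia held 78.4, 109 and 120 CPM, pachytene to diplotene spermatocytes 105, 101 and 113, and round spermatids 40.0, 55.5 and 62.9. The fall from leptotene to zygotene spermatocytes to elongating and condensing spermatids thus spanned each later class in every library. Ift20 RNA was not particular to germ cells: the non-germ cells held 56.6, 159 and 160 CPM.

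Ift74 and Ift81 encode partners that bind tubulin together. Ift74 spans chromosome 4, 94614491 to 94693229, plus strand, and Ift81 chromosome 5, 122550204 to 122614518, minus strand. Ift74 was at 280, 297 and 286 CPM in pachytene to diplotene spermatocytes, at 187, 238 and 241 in round spermatids, and at 55.8, 73.3 and 69.4 in elongating and condensing spermatids. Its pachytene to diplotene level was 5.01, 4.04 and 4.12 times that of elongating and condensing spermatids. Ift81 was at 69.5, 76.3 and 71.5 CPM in leptotene to zygotene spermatocytes, 60.9, 75.2 and 57.1 in pachytene to diplotene spermatocytes and 53.8, 67.6 and 55.8 in round spermatids. It then stood at 13.2, 17.0 and 15.9 CPM in elongating and condensing spermatids, so that most of its fall came in that step. Over the 15 class and library values, log2 levels of the pair had a Pearson r of 0.92, given as a description of points that share libraries and depth.

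Ift88, a core complex B gene, spans chromosome 14, 57424062 to 57517936, plus strand, and shares 67 exonic bases with the antisense gene Ift88os. Ift140 spans chromosome 17, 25016085 to 25099495, plus strand, with Tmem204 inside it on the minus strand and sharing no exon. Ift88 was at 91.2, 89.1 and 77.3 CPM in leptotene to zygotene spermatocytes and at 9.37, 14.7 and 11.5 in elongating and condensing spermatids. Ift140 was highest in pachytene to diplotene spermatocytes, at 53.9, 54.5 and 57.3 CPM, and stood at 6.29, 11.5 and 10.6 in elongating and condensing spermatids. Both genes were thin: shCtrl held 1015 UMIs of Ift88 and 647 of Ift140 over all its cells. In the 19 non-germ cells of shCtrl no Ift88 UMI was seen, and the other libraries held 11.2 and 7.62 CPM there.

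Ift172 encodes the largest complex B protein and spans chromosome 5, 31253277 to 31291116, minus strand. Krtcap3, on the other strand, ends 75 bases beyond the 3′ end of Ift172. Hook1 encodes a linker between microtubules and membranes at the manchette and spans chromosome 4, 95967240 to 96025413, plus strand, where it shares 317 exonic bases with 9530080O11Rik on the minus strand. Since the counting strand was not given in the sources used here, reads of overlapping exons such as those of Hook1 and Ift88 cannot be told apart. Ift172 was at 119, 98.6 and 105 CPM in pachytene to diplotene spermatocytes, 345, 194.5 and 250.2 in round spermatids and 861, 770.3 and 845 in elongating and condensing spermatids. Hook1 was at 95.7, 79.4 and 89.6 CPM in pachytene to diplotene spermatocytes, 373, 229 and 242 in round spermatids and 560.5, 479 and 460 in elongating and condensing spermatids. From pachytene to diplotene spermatocytes to elongating and condensing spermatids the level of Ift172 was 7.21, 7.82 and 8.06 times higher, and that of Hook1 5.86, 6.03 and 5.13 times. Their log2 levels had an r of 0.96 over the 15 values, against -0.70 for Ift172 and Ift20.

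The pachytene to diplotene levels of Ift172 and Hook1 were close to those of the non-germ cells, which held 89.4, 109 and 85.8 CPM of Ift172 and 80.5, 90.6 and 54.7 of Hook1. The intervals of both kinds of cell overlapped in shCtrl and hairpin 1 and did not with hairpin 2. Levels so close to those of non-germ cells, which may hold free RNA, give no direction between libraries.

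Meig1 encodes a small protein of manchette transport and spans chromosome 2, 3409043 to 3422648, minus strand. Every cell of every library held at least 1 Meig1 UMI, including the non-germ cells, where the level was 1103, 2070 and 1919 CPM. Its level in spermatogonia, 1856, 2111 and 2349 CPM, was the nearest to that of the non-germ cells. It was 7682, 7710 and 8316 CPM in pachytene to diplotene spermatocytes, 6637, 7146 and 7672 in round spermatids and 5487, 6040 and 5936 in elongating and condensing spermatids. Spef2 encodes a central apparatus protein that binds Ift20 and spans chromosome 15, 9578193 to 9748868, minus strand. It was at 31.8, 43.4 and 34.6 CPM in pachytene to diplotene spermatocytes, 25.1, 40.6 and 33.7 in round spermatids and 3.71, 6.43 and 7.33 in elongating and condensing spermatids. In spermatogonia Spef2 had 1, 14 and 20 UMIs, and no fold is drawn there.

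For each gene, the 3 genes of 7067 with the most similar log2 levels over the same 15 values were found by Pearson r. Those of Ift172 were Gm16279, Tppp2 and Fam71f2 (r of 0.998, 0.997 and 0.997), and those of Hook1 were 1700019O17Rik, Cst8 and Ccdc91 (0.995, 0.995 and 0.994). Ift20 was most like Ccdc34, Mrpl24 and Ndufb3 (0.988, 0.985 and 0.985), and Ift74 most like Irak1bp1, Tbrg1 and Mrpl39 (0.985, 0.984 and 0.984). Mrpl24 and Mrpl39 encode proteins of the mitochondrial ribosome. Ift81 was most like Immp1l, Tex264 and Ezh2 (0.988, 0.979 and 0.979). Ift88 was most like Pkmyt1, Ift27 and Gm13830 (0.966, 0.96 and 0.957), and Ift27 is itself a complex B gene. Ift140 was most like Lrrc49, Cog6 and Bcap29 (0.987, 0.987 and 0.986), Meig1 like Gad1os, Ypel1 and Sh3glb1 (0.981, 0.98 and 0.978), and Spef2 like Tmem69, Lrrc6 and 4930550C14Rik (0.972, 0.971 and 0.968). None of the 9 genes had another of the 9 among its 3.

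Because Ift172 and Hook1 had the same course through the classes, the sequences around their starts were set beside those of the other members. RFX factors are known to bind the X-box of ciliary genes, and their motif was searched on both strands of RefSeq promoters (GRCm38.p6) from 250 bases before to 50 bases after the start site. Of the 9 genes, 8 matched the table, with 10 promoters, of which 3 belong to Meig1. The full X-box, the arms GTNNCC and GNAAC with 3 bases between, was in none of the 10 and in 2.17% of 32851 promoters. The RFX half-site in the forms GTTGCC or GTTGCT, either of which can lie within a full X-box, was in promoters of 6 genes (Ift172, Ift74, Ift88, Ift140, Spef2 and Meig1) and in 25.1% of all promoters. It was in neither Hook1 nor Ift20. The lines give 100 bases before to 30 bases after the start, 5′ to 3′ on the gene's strand, with GTTGCC or GTTGCT on either strand in capitals. They are shown for the pair that was highest in elongating and condensing spermatids and for 3 genes that fell toward that class.
Ift172 (chr5:31291085-31291214, minus strand): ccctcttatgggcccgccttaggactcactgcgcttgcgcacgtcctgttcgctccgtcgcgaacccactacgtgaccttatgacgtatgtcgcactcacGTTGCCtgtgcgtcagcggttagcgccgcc
Hook1 (chr4:95967279-95967408, plus strand): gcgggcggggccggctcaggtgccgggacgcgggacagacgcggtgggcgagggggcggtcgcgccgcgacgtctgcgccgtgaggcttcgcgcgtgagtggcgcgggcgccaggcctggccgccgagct
Ift74 (chr4:94614391-94614520, plus strand): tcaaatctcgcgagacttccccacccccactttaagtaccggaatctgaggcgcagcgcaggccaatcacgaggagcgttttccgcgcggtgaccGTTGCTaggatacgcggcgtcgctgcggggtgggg
Ift88 (chr14:57423971-57424100, plus strand): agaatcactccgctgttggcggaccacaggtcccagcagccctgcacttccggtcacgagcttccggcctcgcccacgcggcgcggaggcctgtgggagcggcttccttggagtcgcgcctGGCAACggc
Spef2 (chr15:9748839-9748968, minus strand): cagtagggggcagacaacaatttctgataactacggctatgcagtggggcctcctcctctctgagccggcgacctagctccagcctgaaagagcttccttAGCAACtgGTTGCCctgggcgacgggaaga

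The match begins at position 1 of the transcript in Ift172, 5 bases before the start in Ift74 and at position 22 in Ift88, and Spef2 has matches at 1 and 9 on opposite strands. Hook1 has no match in the window. A match describes letters and not binding, and a window without one says nothing of the factor.

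Between the libraries, Ift172 and Hook1 stood apart from the other 7 genes. Over all cells Ift172 was at 566.5 CPM (559 to 574) in shCtrl, 391.6 (385 to 398) with hairpin 1 and 385 (379 to 391) with hairpin 2. Hook1 was at 419 CPM (412 to 425), 282 (276 to 287) and 253 (248.5 to 258). Both genes were thus highest in shCtrl, and no interval of shCtrl overlapped that of a hairpin library. The log2 folds were -0.53 and -0.56 for Ift172 and -0.57 and -0.72 for Hook1. Less the median of all genes they were -0.76 and -0.81, and -0.80 and -0.98.

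Of the remaining genes, Ift20 was at 48.1, 65.6 and 97.5 CPM over all cells, and its hairpin 2 level was the farthest from shCtrl. B and plasma cell markers (4 of the 6 listed were in the table, all above 0 in every library), whose cells also held Ift20, summed to 19.3, 609 and 1120.0 CPM, and over the germ classes alone Ift20 was 0.15 and 0.68 above the median against 0.21 and 0.75 over all cells. Ift74 was at 132, 174 and 174 CPM, Ift81 at 35.9, 46.5 and 41.7, and Ift88 at 25.1, 32.7 and 31.6. Ift140 was at 16.0, 25.3 and 24.3 CPM, Spef2 at 14.4, 24.2 and 20.2, and Meig1 at 5841, 6324 and 6264. All 7 had their lowest CPM in shCtrl, but this direction in raw CPM depends on the scaling, and for Meig1 the folds of 0.11 and 0.10 were under the median of all genes. Log2 folds of the others ran from 0.36 to 0.71 with hairpin 1 and from 0.21 to 1.01 with hairpin 2.

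Counted against the median, 5 of the 9 genes were above it with both hairpins over all cells (Ift20, Ift74, Ift88, Ift140 and Spef2), where 41.7% of the 7068 genes compared were. Below it with both were 3 (Ift172, Meig1 and Hook1), where 41.7% of all genes were, and Ift81 was split. These shares are near the background. At least 1.5-fold below the median with both hairpins were Ift172 and Hook1, as were 12.5% of all genes. None was at least 2-fold higher or lower than shCtrl with both hairpins, where 1.23% and 0.495% of all genes were. That background split, 87 genes higher and 35 lower, became 23 and 171 under TMM scaling. The median log2 fold of the 9 genes was 0.37 and 0.32, against 0.23 and 0.25 for all genes.

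**Figure D2:**
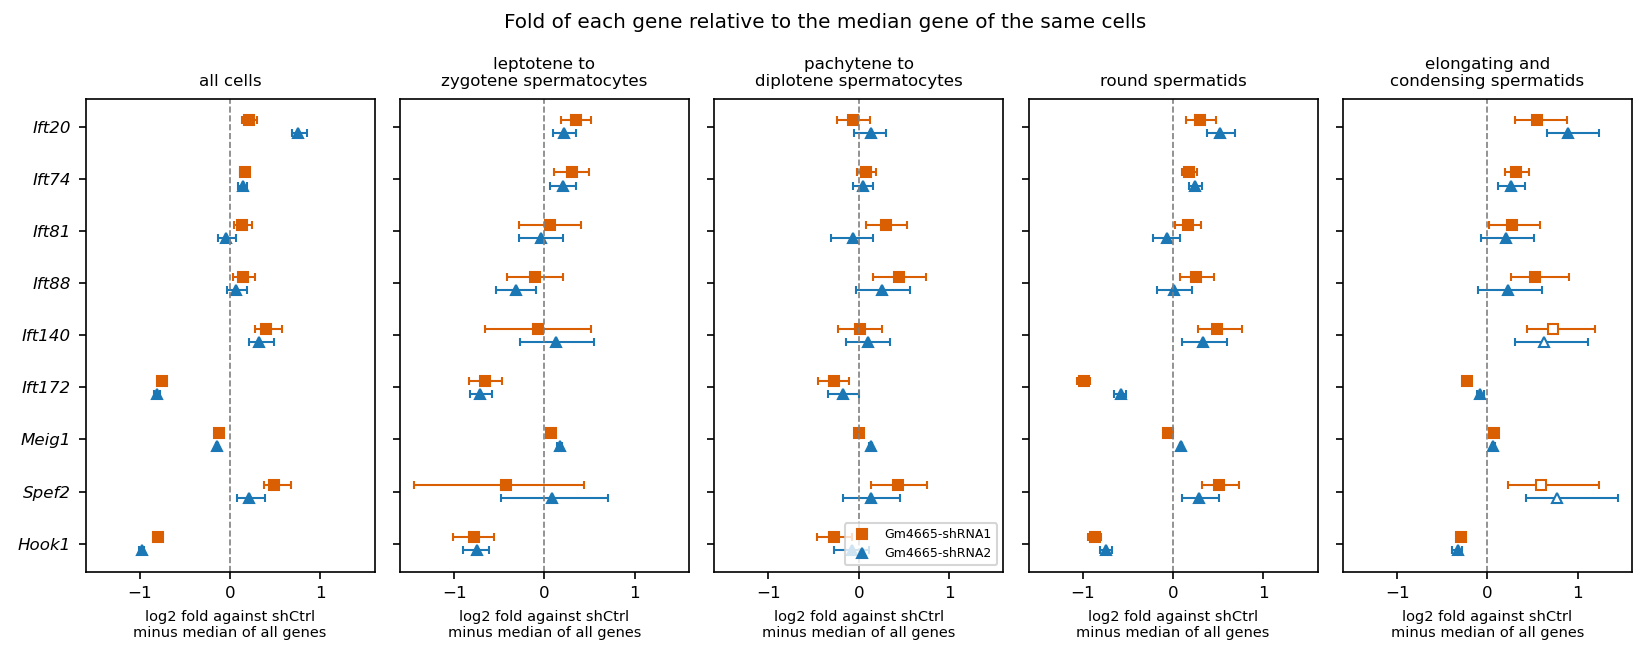
Log2 fold of each gene against shCtrl minus the median fold of all genes compared in the same cells (dashed line at 0), for hairpin 1 and hairpin 2, over all cells and in the 4 classes compared; bars are 95% counting intervals and open symbols mark genes under the expression filter. Hook1 and Ift172 lie left of the line with both hairpins in every panel, closest to it in elongating and condensing and in pachytene to diplotene cells.

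The mix of classes also differed between the libraries. Elongating and condensing spermatids, where Ift172 and Hook1 were highest, were fewest with hairpin 2. Leptotene to zygotene spermatocytes, where Ift20 was highest, took 5.99%, 3.98% and 11.5% of cells, fewer with hairpin 1 and more with hairpin 2. Pachytene to diplotene spermatocytes were more with both hairpins. With the classes of each hairpin library weighted to the mix of shCtrl, the values less the median were -0.42 and -0.24 for Ift172, -0.50 and -0.49 for Hook1 and 0.25 and 0.36 for Ift20. All were smaller in size than the unweighted values except that of Ift20 with hairpin 1. In a sum over all cells alone, fewer cells of a type and less RNA per cell cannot be told apart, so values within each class follow.

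In round spermatids Ift172 stood at 345 CPM (335 to 355), 194.5 (187 to 202.5) and 250.2 (242 to 259). Hook1 stood at 373 CPM (362.5 to 383), 229 (220.3 to 237.5) and 242 (234 to 251). For both genes shCtrl was highest and overlapped neither hairpin library. The CPM of a hairpin library was 0.564 and 0.726 times that of shCtrl for Ift172, and 0.614 and 0.65 times for Hook1. Less the median of all genes in these cells the log2 folds were -0.99 and -0.58 for Ift172 and -0.87 and -0.74 for Hook1. The median round spermatid held 6 Ift172 UMIs in shCtrl and 3 in either hairpin library, and 8 Hook1 UMIs against 4 and 4. The hairpin libraries were also the shallower ones in this class. A UMI of Ift172 was seen in 99.1%, 91.1% and 93.7% of round spermatids at median depths of 15747, 11562 and 14810 UMIs. After thinning to 10000 UMIs, which left out 34, 214 and 124 shallower cells, the shares were 93.0%, 77.2% and 79.8%. Hook1 gave 99.3%, 94.4% and 94.3%, and thinned 92.2%, 80.0% and 88.1%. Every share was highest in shCtrl at equal depth too. In non-germ cells, of median depth 14047, 9685.5 and 13174.5, the shares were 78.9%, 67.4% and 68.9% for Ift172 and 68.4%, 50% and 50.6% for Hook1. Thinned, they were 78.9%, 56.1% and 54.9%, and 63.2%, 43.9% and 39.4%. Round spermatids thus exceeded the non-germ cells of their own library for both genes, thinned or not. The non-germ shares were themselves highest in shCtrl for both genes, thinned or not, from 19 cells of that library. In CPM the non-germ level of both was highest with hairpin 1. Whether free RNA had a part in the round spermatid differences was not tested.

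The other genes of complex B went the other way in round spermatids, or stayed near the median. Ift20 stood at 40.0, 55.5 and 62.9 CPM, which was 0.30 and 0.52 above the median on the log2 scale. Non-germ cells held more Ift20, at 56.6, 159 and 160 CPM, so this difference gives no direction between libraries. Ift74 was 0.18 and 0.24 above it and Ift88 0.25 and 0.01, the latter with an interval that included the median. Ift140 was 0.48 and 0.33 above and Spef2 0.51 and 0.29, both with intervals that left out the median with either hairpin. In shCtrl the level of Ift140, 17.3 CPM (15.2 to 19.7), overlapped that of non-germ cells, 8.94 (1.84 to 26.1), though in the hairpin libraries it did not. Ift81 (0.16 and -0.07) and Meig1 (-0.06 and 0.09) were split. Of the 9 genes, 5 (Ift20, Ift74, Ift88, Ift140 and Spef2) were above the median with both hairpins, against 42.0% of 6718 genes, and Ift172 and Hook1 below, against 42.0%. Hook1 was at least 1.5-fold below the median with both hairpins, as were 10.5% of all genes, and Ift172 with hairpin 1 alone.

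The round spermatids of the libraries were spread differently over the clusters of the class. Of its cells, shCtrl held 231 of 432 in cluster 1, where Ift172 and Hook1 were high, while hairpin 2 held 208 of 476 in cluster 2. Hairpin 1 was spread over clusters 1, 2 and 8 with 152, 132 and 127 of 504. Cluster 4, led by Gm6588 and Ssxb1, held 36 of 432, 93 of 504 and 119 of 476. Its median depth was 41456.5 UMIs, the deepest of the round clusters, so it weighed more in the sums than its share of cells. It also raised 4 of 11 pachytene to diplotene markers. The 14 markers of elongating and condensing spermatids summed to 75100, 47100 and 51600 CPM in round spermatids, all 14 present in every library, and the 11 pachytene to diplotene markers to 1560, 2200 and 2090. Weighting the clusters to the mix of shCtrl left Hook1 at -0.31 and -0.26 and Ift172 at -0.38 and 0.00, so that Ift172 was no longer below the median with hairpin 2. In cluster 2 Ift172 was at 192, 130 and 200.1 CPM, and in cluster 1 at 484, 397 and 479.9. Hook1 was at 250.5, 189 and 244 CPM in cluster 2 and at 503, 428 and 393 in cluster 1. Ift140 and Spef2 also varied between these clusters. Less the median, Ift140 was at 0.69 and 0.5 in cluster 1, and Spef2 at 0.81 and 0.24. In cluster 8 they were at -0.37 and -0.97, and at -0.44 and -0.45. In cluster 4 they were at -0.05 and -0.06, and at 0.46 and 0.33, and in cluster 2 both were split. Weighting the clusters left both genes above the median with both hairpins.

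In elongating and condensing spermatids the late markers were nearly level, at 224000, 219000 and 231000 CPM, and the differences were smaller. The libraries were still spread differently over the clusters of this class. Clusters 0, 6, 7 and 10 held 189, 194, 69 and 140 cells of shCtrl. They held 146, 228, 174 and 82 of hairpin 1, and 75, 235, 136 and 45 of hairpin 2. Ift172 was at 861 CPM (847 to 876), 770.3 (755 to 786) and 845 (828 to 862), so that hairpin 2 overlapped shCtrl. Hook1 was at 560.5 (549 to 572), 479 (467 to 491) and 460 (447 to 473), and shCtrl overlapped neither hairpin library. Less the median, Ift172 was at -0.23 and -0.08 and Hook1 at -0.29 and -0.33. Clustering without the 9 genes and Gm4665 gave -0.18 and 0.04 for Ift172 and -0.26 and -0.24 for Hook1. Hook1 therefore remained below the median with both hairpins, and Ift172 did not.

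The 7 other genes were above the median with both hairpins in these cells. Markers of earlier classes, in which most of these genes were highest, moved with them: the 11 pachytene to diplotene markers summed to 487, 714 and 781 CPM and the 11 leptotene to zygotene markers to 81.5, 123 and 151, all present in every library. Their part in the result was not tested. Ift20 was 0.55 and 0.89 above it, Ift74 0.32 and 0.26, Ift81 0.27 and 0.21, Ift88 0.53 and 0.23, and Meig1 0.07 and 0.06. Ift140 (0.72 and 0.63) and Spef2 (0.59 and 0.77) were also above, but their mean was under 10 CPM and they were not counted among the genes compared. Of the 7 genes that passed the filter 5 were above, against 40.6% of 5101 genes, and 2 below, against 40.6%. Intervals included the median for Ift81 and Ift88 with hairpin 2. Ift20 was the farthest above with hairpin 2, at 2.0 times the CPM of shCtrl, which is a log2 fold of 0.94 on the scale of CPM + 1. Non-germ cells held more Ift20, at 56.6, 159 and 160 CPM, and there it was 1.28 and 1.31 above the median. For Ift81, Ift88, Ift140 and Spef2 the intervals overlapped those of non-germ cells in every library. Levels under or so close to those of non-germ cells give no direction between libraries, so these differences carry that limit.

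Fewer spermatocytes stood behind each value, with 85, 69 and 215 cells from leptotene to zygotene and 79, 199 and 218 from pachytene to diplotene. In leptotene to zygotene spermatocytes Ift172 stood at 319 CPM (298.5 to 340.3), 212 (189.9 to 236) and 206 (195 to 218), and Hook1 at 235 (218 to 254), 144 (125 to 164) and 147.5 (138 to 158). Both were highest in shCtrl with no overlap. Less the median, Ift172 was at -0.66 and -0.71 and Hook1 at -0.78 and -0.75, each at least 1.5-fold below with both hairpins, as were 7.79% of genes. The late spermatid markers moved with them in these cells, at 71600, 44100 and 41600 CPM against 22800, 18300 and 19200 in pachytene to diplotene spermatocytes. Sertoli markers summed to 270.0, 165 and 218 CPM there, with 8 of 11 present in every library and Sox9, Amh and Rhox5 at 0 in at least 1. The part of either in the result was not tested. Above the median with both hairpins were 3 genes (Ift20, Ift74 and Meig1) and below it 3 (Ift88, Ift172 and Hook1), against 37.4% of 7595 genes each way. In pachytene to diplotene spermatocytes 5 were above (Ift74, Ift88, Ift140, Meig1 and Spef2) and 2 below (Ift172 and Hook1), against 36.1% of 6799 genes each way. Ift88 (0.44 and 0.26) and Spef2 (0.43 and 0.14) were farthest above, with intervals that left out the median with hairpin 1 alone. Ift74 (0.08 and 0.05) and Ift140 (0.01 and 0.10) had intervals that included the median with both hairpins. That of Meig1 (0.00 and 0.13) included it with hairpin 1.

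Across the 4 classes compared, Ift172 and Hook1 were below the median with both hairpins in every class, as were 11.5% of the 4160 genes that passed the filter in all 4. Their pachytene to diplotene values are the ones near the level of non-germ cells. Spermatogonia were not compared as a class because shCtrl held 45 of them. At the level of single clusters, 12 clusters held at least 30 cells of every library, the 1 cluster of spermatogonia included. Hook1 was below its cluster's median with both hairpins in 12 of 12, as were 0.948% of the 7068 genes, and Ift172 in 11, where 3.4% were below in at least 11. The exception for Ift172 was cluster 2. These clusters divide the same 3 libraries and share 1 shCtrl, so a count over them is not a count of repeats. The 7068 genes passed the filter over all cells and not in each cluster. Thinly counted genes can change side there by counting error, which lowers the share of all genes. The counting interval of Hook1 left out the median in 10 of the 12 with hairpin 1 and in 7 with hairpin 2, and that of Ift172 in 12 and 7. In spermatogonia the late spermatid markers also were highest in shCtrl, at 33100, 24900 and 23900 CPM. Without the spermatogonia and pachytene to diplotene clusters, Hook1 was below in 10 of 10, as were 1.92% of genes, and Ift172 in 9. Of the 12 clusters, Ift20 was above in 8 and below in none, where 20.1% of genes were above in at least 8. The counting interval of Ift20 left out the median in 2 of the 12 with hairpin 1 and in 7 with hairpin 2. In both classes of spermatid its level was under that of non-germ cells, which gives no direction there. Ift74 was above in 8 as well, but below in 3. Ift140 and Spef2 were each above in 6 and below in 2, a count for which no share of all genes was drawn.

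**Figure D3:**
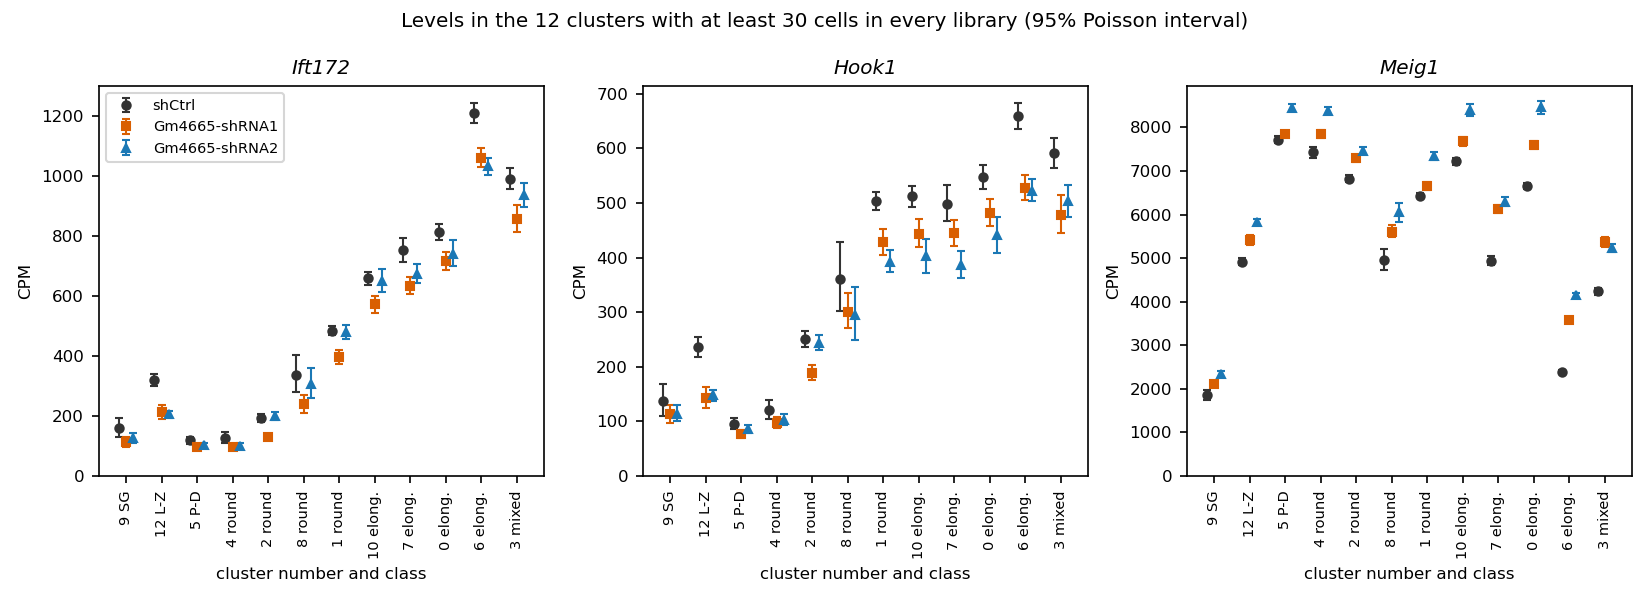
Levels of Ift172, Hook1 and Meig1 (CPM) in the 12 clusters with at least 30 cells per library, ordered by class with the mixed Sertoli and spermatid cluster last; bars are 95% Poisson intervals. Hook1 of shCtrl is the highest point in all 12 clusters, and Meig1 of shCtrl the lowest in all 12.

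Meig1 went against its own total. Over all cells it was below the median of all genes, at -0.12 and -0.15, yet it was above the median of its cluster with both hairpins in 12 of 12 clusters, as were 1.57% of genes. Its counting interval left out the median in 10 of the 12 with hairpin 1 and in 12 with hairpin 2. The clusters share their libraries, and the limits given for the count of Hook1 hold here too. In non-germ cells Meig1 was above the median too, by 0.72 and 0.63. Whether free RNA had a part in these differences was not tested. The widest gap was in cluster 6, elongating and condensing cells with Prm2 among their top genes, at 2394 CPM in shCtrl, 3591 with hairpin 1 and 4146 with hairpin 2. In cluster 0, which had Tnp2 among its top genes, it was at 6655, 7593 and 8459. At a finer clustering, cluster 6 divided chiefly into a group with 171, 55 and 3 cells of the 3 libraries and one with 21, 120 and 214. Meig1 was at 2251 and 1857 CPM in shCtrl and hairpin 1 in the former, and at 3677, 3641 and 4105 in the latter. Within either finer group hairpin 1 was no longer above shCtrl, and only hairpin 2 in the latter group was, from 21 cells of shCtrl.

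In the same finer groups Ift172 of shCtrl was no longer above both hairpins, and Hook1 of shCtrl was still the highest. In the latter group Ift172 was at 1036 CPM (941 to 1137), 1025 (982 to 1069) and 1048 (1019 to 1077), all overlapping. Hook1 was at 619.5 (547 to 699), 534 (503 to 566) and 530 (509 to 551), with shCtrl highest from 262 UMIs and its interval overlapping both others. In the former, Ift172 was at 1230.0 and 1308 CPM in shCtrl and hairpin 1 and Hook1 at 666 (641 to 693) and 516 (475.5 to 560). Hairpin 2 had 3 cells there and is not compared.

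Other genes of the pathway did not move as a block. Of 14 other complex B genes 11 were compared over all cells, with 4 above the median with both hairpins and 3 below, against 41.7% of all genes each way. Ift52 was at 14.1, 22.1 and 23.7 CPM, Traf3ip1 (Ift54) at 30.7, 51.3 and 45.3, and Hspb11 (Ift25) at 40.1, 54.3 and 70.1, all above. The list's median log2 fold was 0.24 and 0.36. Of 6 other complex A genes 5 were compared, with 3 above and 2 below, again against 41.7% each way. Wdr35 was at 12.1, 20.5 and 21.8 CPM, Ift43 at 151, 211 and 201, and Ttc21b at 13.1, 17.8 and 18.2, all above. That list's median was 0.42 and 0.41.

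Among the motors of intraflagellar transport 9 of 10 were compared, with 7 above the median and 1 below, against 41.7% of all genes each way. Kif3a, a kinesin motor subunit, was at 53.8, 86.4 and 82.1 CPM and its partner Kif3b at 30, 42.4 and 41.0. Wdr60, a dynein intermediate chain, was at 60.3, 98.9 and 85.4 CPM. The list's median log2 fold was 0.43 and 0.44, against 0.23 and 0.25 for all genes. BBSome genes, which encode an adaptor for membrane cargo and its helpers, numbered 6 of 10 compared, with 3 above and 2 below, against the same 41.7% each way. Lztfl1, a regulator of the BBSome, was at 99.4, 183 and 166 CPM over all cells. In elongating and condensing spermatids Lztfl1 was at 21.1, 53.6 and 53.0 CPM, log2 folds of 1.3 and 1.29, the only gene of these lists at least 2-fold from shCtrl with both hairpins in a class, where 2.18% of genes were higher by that much. Bbip1, a small BBSome subunit (116, 167 and 177 CPM), and Arl6, the GTPase that brings the BBSome to membranes (47.4, 67.3 and 64.7), were also above over all cells.

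Manchette genes other than the members were divided, with 8 above the median and 7 below of 19 compared (41.7% of all genes each way), and a median log2 fold of 0.29 and 0.19. Those farthest below over all cells included Map7, a microtubule-binding protein of the manchette, at 125, 76.4 and 60.1 CPM, log2 folds of -0.70 and -1.04. Aktip, whose protein binds Hook proteins, was at 79.8, 53.1 and 52.6 CPM, folds of -0.58 and -0.59. In elongating and condensing spermatids Map7 was at 156, 115.5 and 83.5 CPM and Aktip at 130, 105 and 108. Both were thus highest in shCtrl in those cells also, as Hook1 was. Iqcg went the other way, at 44.1, 77.3 and 64.1 CPM over all cells. Of the transcription factors of ciliary genes, Foxj1 was at 22.4, 40.0 and 37.6 CPM, Rfx2 at 36.5, 49.99 and 42.3 and Rfx1 at 18.1, 13.2 and 16.8. Foxj1 was above the median with both hairpins, Rfx1 below, and Rfx2 and Rfx3 were split.

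**Figure D4:**
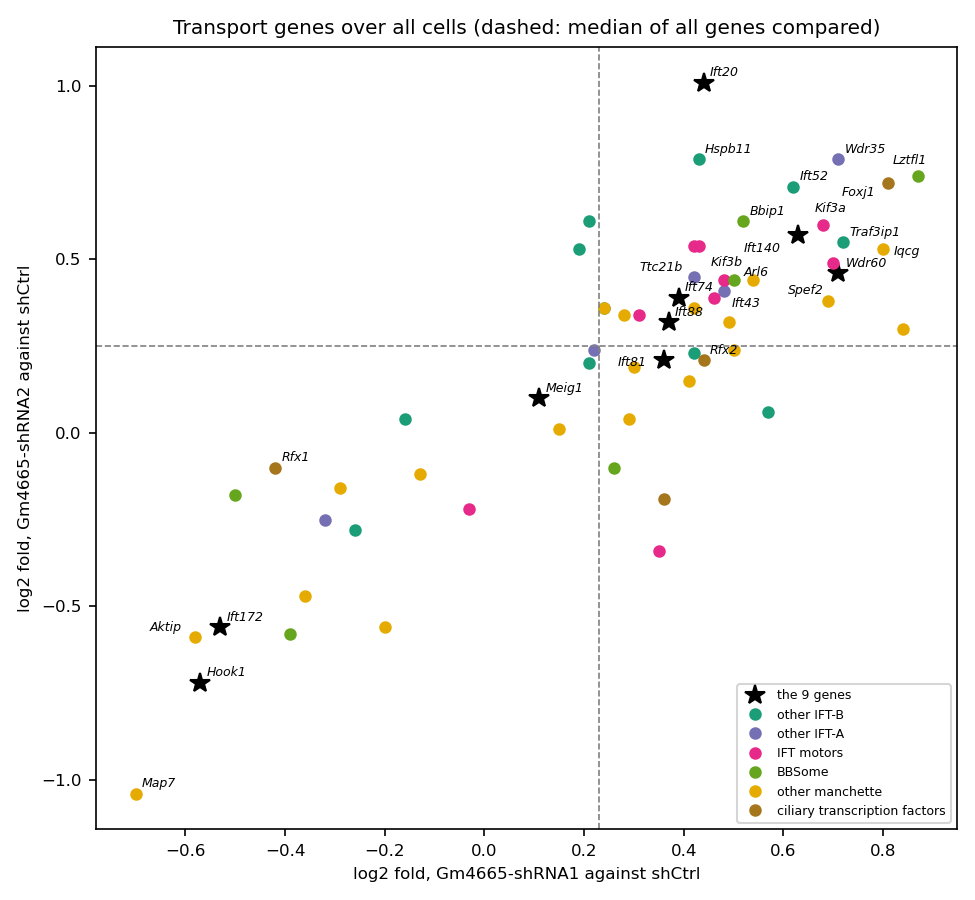
Log2 fold against shCtrl over all cells with hairpin 1 (horizontal) and hairpin 2 (vertical) for the 9 genes (stars) and the other transport genes compared (circles, coloured by list); dashed lines mark the median of all genes, 0.23 and 0.25. Both axes share the shCtrl library, so the slope of the cloud carries no information; Ift172, Hook1, Aktip and Map7 lie at the lower left and Ift20 highest.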

How the data were processed

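Single-cell 3' RNA libraries of 3 groups, 1 library each, were used. Per the submitters' processing notes, the tools were Cell Ranger 1.3.1 and Seurat 2.0.0 and the build was mm10. Annotation, counting strand and cell thresholds were not given in the sources used here. As natural log values, the authors deposited ln(1 + x), where x is a gene's UMIs per 10000 UMIs of its cell. Undoing the log gave whole UMIs, within 0.01, for 100.0% of 20140203 non-zero values in 5023 cells. The design had foreseen this, and sums of UMIs were the main values.

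Column names ending in 1 and 2 were matched to the hairpins by that digit alone. If wrong, hairpins 1 and 2 change places. No cell was removed and no doublet caller was run. Cells above 60000 UMIs were left out in an added alternative.

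Cells were clustered with scanpy 1.11.5 (2000 variable genes, 30 components, 15 neighbours, Leiden resolution 0.8, igraph 0.11.9), which gave 17 clusters, named from marker lists when at least 3 markers were raised 1.5-fold. A class thus names cells with raised markers of that class. A cluster led by a somatic list was called mixed if at least 3 markers of a germ class were raised with a mean log2 score of at least 1, and non-germ otherwise. A class was compared if every library held at least 50 of its cells.

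UMIs were summed per class and library. Folds used a pseudocount of 1 CPM. Intervals were exact Poisson for levels, conditional exact binomial for ratios and Clopper-Pearson for shares. Fold and scaling steps were tested on simulated data. Named genes were all 9, up to 3 per pathway list by the smaller absolute fold of genes with 1 direction in both hairpins, any at least 2-fold with both, and the 3 most similar genes of each member. The members and lists were chosen with earlier results of these data known, and the motifs with the promoter table at hand.

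The last 500 bases of the members' transcripts were compared with GENCODE M21 by blastn 2.17.0, and 0 other genes matched at 95% identity over 100 bases. Other tools were Python 3.11.15, numpy 2.4.6, pandas 2.3.3, scipy 1.17.1 and matplotlib 3.10.9. Alternatives covered scaling, pseudocount, filter, class mix, clustering, depth and cells left out. Of the manchette list, 1 gene is not reported here.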

Additional observations from a re-analysis of the deposited data

How the results depend on the processing

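Of 64 counts of genes above, below or 2-fold from the reference under the alternatives, 62 kept within 1.5 times their value and 2 did not. The number of genes below the median with both hairpins went from 2 to 1 in round spermatids when clusters were weighted to the mix of shCtrl, and from 2 to 1 in elongating and condensing spermatids when cells were clustered without the 9 genes and Gm4665. Hook1 was the gene left in both.

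Of 486 folds less the median, 7 changed sign from a main value whose counting interval left out the median. Of the others, 379 moved by no more than the width to one side of that interval and 100 by more. Among these, 7 values, all with hairpin 2 and all from intervals that included the median, changed sign, for Ift81 over all cells (from -0.05 to at most 0.08) and Ift88 over all cells or in round spermatids (to at lowest -0.14). Of the 7 changes from clear main values, those of Ift172 with hairpin 2 were 0.0 in round spermatids with clusters weighted and 0.04 in elongating and condensing spermatids clustered without the 9 genes. For Meig1 over all cells they were 0.04 with hairpin 1 without an expression filter, 0.07 with hairpin 2 with classes weighted, and 0.04 with hairpin 1 from means of the ln values. For Meig1 with hairpin 1 in round spermatids they were 0.03 after thinning and 0.03 with clusters weighted. The cause of these changes was not tested. Genes 2-fold from shCtrl over all cells numbered 87 up and 35 down in the main values. They numbered 23 and 171 under TMM scaling, 22 and 187 under median-of-ratios scaling, 70 and 53 with totals less the 20 most abundant genes, 35 and 14 with a pseudocount of 5 CPM and 163 and 58 after thinning. Without a filter they numbered 234 and 77, in germ cells alone 41 and 40, and with classes weighted 15 and 17. None of the 9 genes was among them under these settings. In elongating and condensing spermatids the 111 genes 2-fold up numbered 24 to 111 under the alternatives, and Ift20 was among them after thinning. Levels at Leiden resolution 1.2 moved beyond the counting interval in 23 of 135 cases. Thinning moved 66 of 81 shares of cells with a UMI.

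The alternatives without shared barcodes, without cells above 60000 UMIs, without the round cluster led by Gm6588 and Ssxb1 and with the mixed cluster, and the cluster counts without spermatogonia and pachytene to diplotene cells, were chosen after seeing the data. The first 2 left the 5 genes above and 3 below over all cells. Without the Gm6588 cluster, round spermatids held 4 above and 2 below. Counting limits Ift88, Ift140 and Spef2 most. No paired analysis was possible because each group was 1 library.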

Other observations

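In the mixed cluster with both Sertoli and elongating spermatid markers, which held 155, 85 and 111 cells of shCtrl, hairpin 1 and hairpin 2, Hook1 stood at 591 CPM, 479 and 503, and Ift172 at 990, 856 and 934. Both were highest in shCtrl there, and Meig1 was lowest, at 4235, 5372 and 5230.0. Ift20 in the cells with B and plasma cell markers (cluster 16) was at 72.0, 264 and 212 CPM, from 3, 42 and 100 cells.

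Within elongating and condensing spermatids, 7 of the 9 other complex B genes compared were above the median with both hairpins and 2 below. The motor genes had 4 above and 0 below of 6 compared, and the BBSome list had 4 above and 2 below of 6. In leptotene to zygotene spermatocytes the motor genes lay the other way, with 2 above and 5 below of 9. These are counts in 1 library per group, beside which 40.6% and 37.4% of all genes were above in those classes.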
